A study of Rattus norvegicus with 4 samples.

Results

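Globin and erythroid genes were followed across the liver samples of adult rat offspring as 4 genes: LOC287167, an alpha globin that RefSeq now names Hba-a3, Hbb, Ahsp and Alas2. They were found by gene symbol in the deposited table of normalized signal, where Ahsp stands under its older name Eraf, and they make up 4 of 21791 rows. RNA of male Wistar rats aged 4 months had been measured on Illumina expression BeadArrays. Prenatally undernourished offspring, labelled FR30, had received either a high-fat or a standard diet, and so had control offspring, which makes 4 groups. Each group has 1 deposited sample, and the labels do not say how many animals it holds, how severe or long the undernutrition was, or what the diet contained. No difference below therefore has a replicate check or a test.

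Red cells are built around hemoglobin, a tetramer of alpha and beta globin chains that each hold a heme. LOC287167 encodes an alpha chain and Hbb a beta chain. Ahsp encodes a chaperone that binds free alpha chains until they pair with beta chains, and Alas2 the erythroid enzyme of the first step of heme synthesis. The fetal liver makes red cells, whereas in the adult rat this takes place mainly in bone marrow and spleen. Young red cells in blood still carry globin mRNA.

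The array measured 21522 genes, of which between 8989 and 9215 were detected per sample at a detection p-value under 0.05. The negative controls averaged between 153.4 and 154.0, as implied by the detection p-values. A deposited signal keeps this background, so differences are given as log2 differences after background correction with an offset of 16, and a gene was called at 1.5-fold. Each signal has a deposited STDEV, over a number of measurements that the files do not give. Its median over detected genes lay between 2.89% and 3.68% of the signal. The FR30 standard sample stood apart: a STDEV above 20% of the signal was found for 114 detected genes there, against 0 in the FR30 high-fat, 0 in the control high-fat and 1 in the control standard sample. Among them was Fabp4 of adipocytes, at 3020.1 with a STDEV of 4928. Of the 4 erythroid genes none was among these. The non-normalized table, in which Fabp4 read 168.2 in that sample, is given as a second reading of the same samples. Its rows were paired with genes by row order and partly by signal. Log2 differences from it were taken after background correction and quantile normalization, as for the normalized table. Closeness of both tables is therefore no independent check.

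The stretch of 250 bases before the gene start is given to describe the DNA next to these genes. It is shown for LOC287167 (Hba-a3), for its better known neighbour Hba-a2, for Hbb and for Alas2, from RefSeq on GRCr8. Ahsp is named only. Regulatory DNA farther from the start was not examined. Capitals mark letters found by a search on both strands for the motif AGATAA of erythroid GATA factors, for CCNCNCCC as the family of boxes bound by Klf1, for the promoter element CCAAT, for TATAAA of common TATA boxes and for ATAAAA of the variant known from beta globin genes. The windows lie at chr10:15816944-15817193 (Hba-a3), chr10:15829139-15829388 (Hba-a2) and chr1:167663722-167663971 (Hbb) on the minus strand, and at chrX:22895200-22895449 (Alas2) on the plus strand. Each is written 5′ to 3′ toward its gene.
Hba-a3 (LOC287167): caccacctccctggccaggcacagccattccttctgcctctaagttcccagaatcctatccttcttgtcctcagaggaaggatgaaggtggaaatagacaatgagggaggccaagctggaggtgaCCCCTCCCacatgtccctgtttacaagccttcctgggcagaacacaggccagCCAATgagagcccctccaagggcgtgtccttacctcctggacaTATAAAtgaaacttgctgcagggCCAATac
Hba-a2: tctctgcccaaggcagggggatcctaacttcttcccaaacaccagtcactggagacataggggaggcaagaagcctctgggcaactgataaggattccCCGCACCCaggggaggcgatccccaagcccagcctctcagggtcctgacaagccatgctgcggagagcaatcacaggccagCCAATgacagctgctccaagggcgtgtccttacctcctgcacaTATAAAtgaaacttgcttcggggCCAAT
Hbb: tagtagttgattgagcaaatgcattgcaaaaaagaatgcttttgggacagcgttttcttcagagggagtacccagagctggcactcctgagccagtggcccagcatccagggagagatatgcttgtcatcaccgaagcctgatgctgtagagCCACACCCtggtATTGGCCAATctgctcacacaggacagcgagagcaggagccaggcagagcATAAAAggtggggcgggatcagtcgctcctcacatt
Alas2: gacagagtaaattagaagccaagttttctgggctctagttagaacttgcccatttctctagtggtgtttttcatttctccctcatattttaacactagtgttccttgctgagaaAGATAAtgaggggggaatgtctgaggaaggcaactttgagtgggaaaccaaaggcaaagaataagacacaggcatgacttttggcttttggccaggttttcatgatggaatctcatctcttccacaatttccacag

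The Hbb window holds the textbook order of a beta globin promoter: a CACCC box whose first base lies 98 bases before the gene start, CCAAT 81 bases and ATAAAA 36 bases before it. CCAAT also matched on the other strand 86 bases before the start, next to the first match. The exact box CCACACCC, which is one form of CCNCNCCC, is in 2.84% of 33469 promoter windows of the same length, against 42.8% for CCNCNCCC, 34.0% for CCAAT, 12.9% for TATAAA and 18.6% for ATAAAA. Both alpha globin windows hold TATAAA, 30 bases before the start in Hba-a3 and 28 bases in Hba-a2, and CCAAT 73 and 71 bases before it. CCAAT occurs again 7 bases before the start in Hba-a3 and 5 bases in Hba-a2. Their CCNCNCCC matches lie 125 bases before the start in Hba-a3 and 152 bases in Hba-a2. In a global alignment 65.5% of positions were identical between Hba-a3 and Hba-a2, against 96.4% between Hba-a2 and Hba-a1. The Alas2 window held AGATAA, 136 bases before the start, a motif found in 10.3% of windows, and none of the other motifs. For GATA factors only the letters AGATAA were searched, so other GATA letters, such as TGATAA in the Hba-a2 window, are not marked. A match is a description of letters and shows no binding.

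LOC287167 (Hba-a3), the alpha globin, stood out in a single sample. Its signal was 881.3 in the FR30 high-fat sample and 184.4 in the FR30 standard sample, with STDEVs of 53.2 and 10.7. In control offspring it was 304.8 on high-fat and 240.6 on standard diet, with STDEVs of 16.2 and 5.16. The FR30 high-fat value was the highest of the 4 and the FR30 standard value the lowest, and intervals of 2 STDEVs were apart in all comparisons of 2 samples made. The FR30 standard signal was only just detected, with a detection p-value of 0.0449.

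After background correction LOC287167 was 15.1-fold higher on high-fat than on standard diet in FR30 offspring, the second highest (rank 2) of 9548 genes compared, and 1.65-fold higher in control offspring, rank 149 of 9472. On uncorrected signals the ratios were 4.78 and 1.27, so the size of the first rests on a value little above background. In the non-normalized table the signals were 1033 and 172.2 in the FR30 high-fat and standard samples and 307.4 and 231.8 in the control high-fat and standard samples. LOC287167 was not detected there in the FR30 standard sample, which gives a log2 bound of at least 3.87. The difference in control offspring fell short of 1.5-fold with an offset of 50, at a log2 difference of 0.57, and without background correction, at 0.34.

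Hbb, the beta globin chain, separated the samples by diet. Its signal was 18345 in the FR30 high-fat and 10911.5 in the FR30 standard sample, with STDEVs of 826 and 456. In control offspring it was 17564.5 on high-fat and 10567.5 on standard diet, with STDEVs of 152 and 133. Both high-fat samples lay above both standard samples, and within a diet the intervals of 2 STDEVs of FR30 and control offspring overlapped. The log2 difference between diets was 0.78 in FR30 and 0.74 in control offspring, a 1.71-fold and a 1.68-fold higher value.

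Other detected globin rows had the same order of diets. MGC72973, annotated in the file as a beta globin, read 6752.8 in the FR30 high-fat and 3688.6 in the FR30 standard sample, against 6213.8 and 3834 in the control high-fat and standard samples. That is a log2 difference between diets of 0.91 in FR30 and 0.71 in control offspring. Hba-a2, an adult alpha globin that shares much of its sequence with Hba-a1, read 44369.8 and 34165.6 in the FR30 high-fat and standard samples and 48663 and 35834.5 in the control high-fat and standard samples. Its log2 differences of 0.41 and 0.44 stayed under the call. These signals lie near the top of the scale, since the brightest gene of a sample read between 55693.7 and 63202.6, and quantile normalization sets such values by rank. The alpha globin rows thus differed between them: in FR30 offspring LOC287167 had a log2 difference with diet of 3.91 and Hba-a2 of 0.41. Near-identical globin genes can share probe signal, and the probe sequences were not analysed here.

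**Figure D1:**
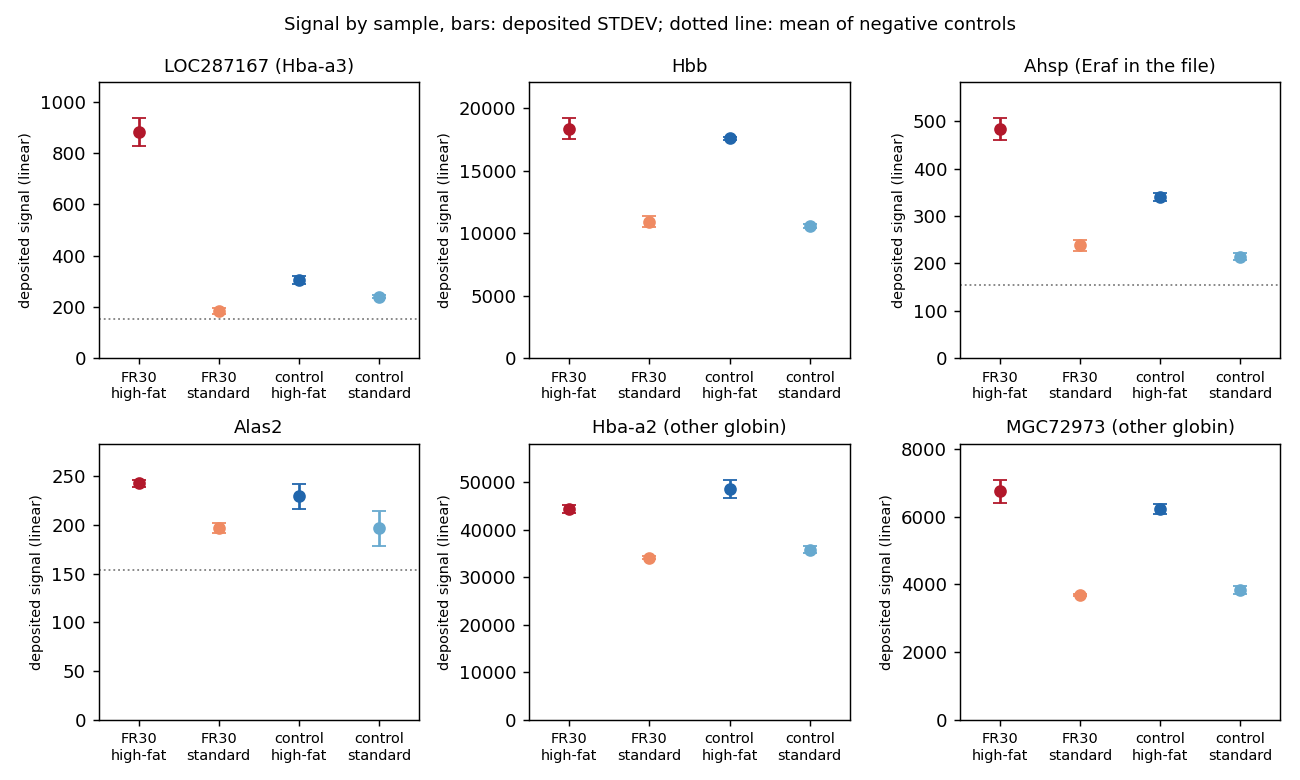
Deposited signal (linear scale from 0) of the 4 genes and of both other detected globin rows in each sample, with the deposited STDEV as bars and the mean of the negative controls as a dotted line where it is in range. Hbb, Ahsp, Alas2 and both other globins sit higher in the high-fat samples, and LOC287167 reaches 881.3 in the FR30 high-fat sample alone.

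Ahsp, the alpha globin chaperone, showed the second largest diet differences of the 4 genes in FR30 offspring and the largest in control offspring. Its signal was 483.2 in the FR30 high-fat and 238.6 in the FR30 standard sample, with STDEVs of 22.7 and 11.9. In control offspring it was 340.3 on high-fat and 214.2 on standard diet, with STDEVs of 9.13 and 7.54. The samples were ordered by diet and, on the high-fat diet, also by prenatal group. Ahsp was 3.44-fold higher with the high-fat diet in FR30 offspring, rank 27 of 9548 genes, and 2.66-fold higher in control offspring, rank 35 of 9472. Its uncorrected signal ratios were 2.03 and 1.59. In the non-normalized table the log2 differences were 1.69 and 1.39 after the same correction and quantile normalization. They lie close to the 1.78 and 1.41 of the normalized table.

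Alas2, the erythroid heme enzyme, had low signals in all 4 samples. It read 242.4 in the FR30 high-fat and 196.8 in the FR30 standard sample, with STDEVs of 3.84 and 5.03, and 229.2 and 196.5 in the control high-fat and standard samples, with STDEVs of 12.8 and 17.97. Both high-fat samples were above both standard samples. The intervals of 2 STDEVs were apart in FR30 offspring and overlapped in control offspring. Alas2 was 1.76-fold higher with the high-fat diet in FR30 and 1.53-fold higher in control offspring. With an offset of 50 the log2 differences were 0.57 and 0.42, and without background correction 0.30 and 0.22, all under the call.

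Set side by side, 4 of 4 genes were called higher with the high-fat diet among FR30 offspring, where 3.82% of all genes compared were called higher and 3.38% lower. In control offspring it was also 4 of 4, where 2.57% were called higher and 3.37% lower. The median log2 difference of all genes was 0.00 and 0.01. Intervals of 2 STDEVs were apart for 4 of 4 genes in FR30 and 3 of 4 in control offspring, against 22.3% and 29.1% of genes detected in both samples. The 4 genes were chosen with earlier results of these data known, so their counts beside these shares are a description and not a test. The diet comparisons rest on separate samples, 1 per group. In bulk liver, more red cells in the tissue and more RNA per red cell cannot be told apart.

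**Figure D2:**
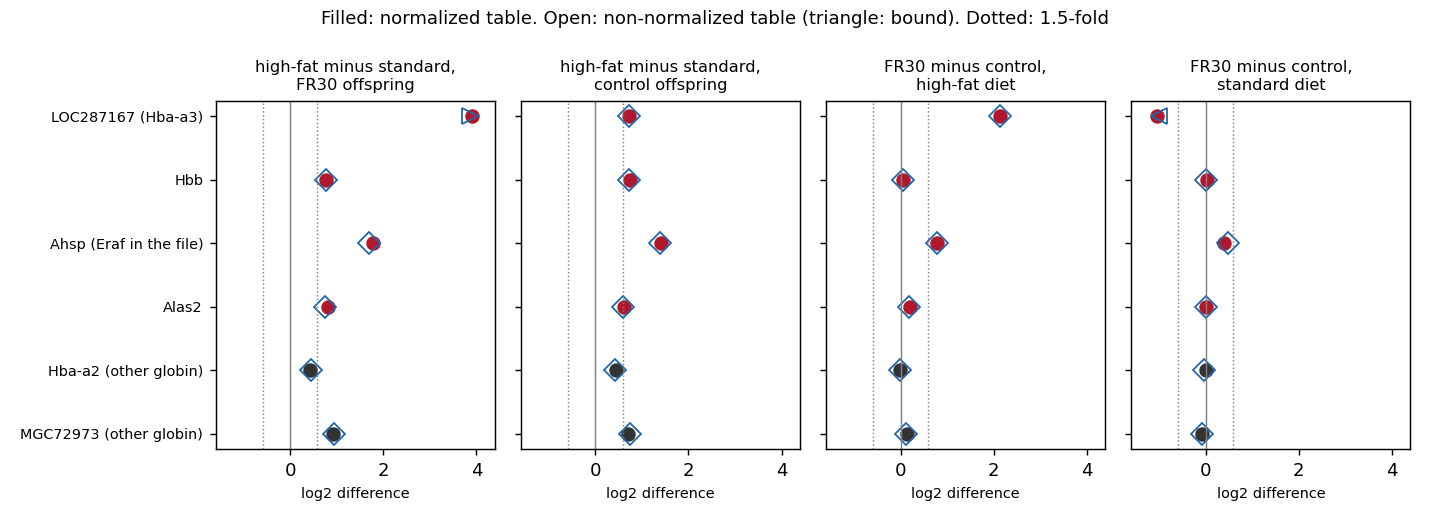
Log2 differences of the 4 genes and both other detected globin rows in the 4 comparisons, from the normalized table (filled) and the non-normalized table (open, triangles for bounds), with 1.5-fold as dotted lines. After the same background correction and quantile normalization, both tables place each gene close together. LOC287167 lies at 3.91 in FR30 offspring and at -1.05 between FR30 and control offspring on the standard diet.

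Prenatal undernutrition on the high-fat diet went with higher LOC287167 and Ahsp. FR30 minus control gave a log2 difference of 2.15 for LOC287167, a 4.42-fold higher value and rank 4 of 9444 genes, and of 0.78 for Ahsp, 1.71-fold higher. Of all genes compared 1.84% were called higher and 1.56% lower. Without background correction Ahsp read 0.51, under the call. Hbb and Alas2 had log2 differences of 0.06 and 0.20.

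On the standard diet FR30 minus control went the other way for LOC287167. It was 2.07-fold lower in the FR30 sample, with a log2 difference of -1.05, where 2.21% of genes were called lower and 2.11% higher. Without background correction it read -0.38, under the call. Ahsp read 0.40, Hbb 0.03 and Alas2 0.00, and none of these 3 was called. The FR30 standard sample also enters the diet comparison of FR30 offspring, so its low LOC287167 value counts in both.

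The diet difference in FR30 minus that in control offspring was 3.19 on the log2 scale for LOC287167, rank 3 of 8451 genes, where 1.1% of genes were called at least 2-fold higher and 1.08% lower. It was 0.37 for Ahsp, 0.20 for Alas2 and 0.03 for Hbb, none of them called. In the non-normalized table this value could not be had for LOC287167, since 1 sample was below detection. Without background correction it was 1.92.

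Embryonic globin genes and Hbq1 were not detected. Of 9 globin rows on the list 4 were detected in all samples, LOC287167, Hbb, Hba-a2 and MGC72973, and 5 in none: Hbe1, Hbe2, Hbg1, Hbz and Hbq1. Of all genes compared 3.82% were called higher with diet in FR30 and 2.57% in control offspring. In this list 3 of 4 compared rows were called higher with diet in FR30 offspring and 3 of 4 in control offspring. The called rows were LOC287167, Hbb and MGC72973 in both groups, the first 2 of them among the 4 genes. The list medians were 0.85 and 0.71, or 0.66 and 0.57 over the 2 rows that are not among the 4 genes. Among globins outside red cells Cygb, of fibroblast-like cells, read 0.30 and -0.05, and myoglobin (Mb) was detected only in the FR30 standard sample, at 185.1 with a STDEV of 35.5.

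In the heme synthesis list Alas2 was the one gene called with diet. Of 12 genes compared, 1 was called higher with diet in FR30 offspring and 1 in control offspring, in both cases Alas2, and 0 lower. The list medians were 0.16 and -0.04. Over all genes compared the shares called higher were 3.82% in FR30 and 2.57% in control offspring. Fech, the last enzyme of the pathway, read -0.09 with diet in FR30 and 0.33 in control offspring. Its signal was 1497.4 in the FR30 standard sample against 1043 in the control standard sample, 1.51-fold higher after correction. Uros, an intermediate enzyme of the pathway, was lower in FR30 than in control offspring on the high-fat diet, with a log2 difference of -0.62. Abcb10, a mitochondrial transporter needed for heme synthesis, was not detected in the FR30 standard sample, and its difference there from the control standard sample has a bound of -0.32, under the call. Alas1, the enzyme of the same first step in liver cells, was on the list, but no row was found under its symbol.

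Genes of the red cell membrane and skeleton mostly did not pass the detection threshold. Of 13 rows 9 had a detection p-value of 0.05 or more in every sample, among them the anion exchanger Slc4a1, the spectrin Sptb and the Rh-associated glycoprotein Rhag. Gypc, a glycophorin, counts among the 9 although it read 718.1 and 702.5 in the FR30 high-fat and standard samples and 782.8 and 701.1 in the control high-fat and standard samples: its deposited p-value is not a whole step of the negative controls, as where probes were averaged, so this p-value does not show that it was absent. Slc4a1 had signals of 171.5 and 158.4 in the FR30 high-fat and standard samples and of 165.4 and 162.7 in the control high-fat and standard samples. Over all genes compared 3.82% were called higher with diet in FR30 and 2.57% in control offspring. In this list, of 4 rows compared 2 were called higher with diet in FR30 offspring and 1 in control offspring, and 0 lower. These were chosen after their values were seen: Add2, a beta adducin of the red cell skeleton, was not detected on the standard diet and was higher on the high-fat diet by at least 0.94 in FR30 and 0.73 in control offspring on the log2 scale. Rhd, the Rh blood group protein, was higher by at least 0.60 and 0.13. In the non-normalized table the Rhd bound in FR30 offspring was 0.52, under the call. Add2 read 228.9 and 176.1 in the FR30 high-fat and standard samples and 216.2 and 178.5 in the control high-fat and standard samples. Cd47, a surface protein of red and many other cells, was lower in FR30 than in control offspring on the high-fat diet, with a log2 difference of -0.68.

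Erythroid transcription factors showed no call in the diet comparisons. Gata1 and Klf1, the master regulators of red cell genes, were detected in no sample. Klf1 read 158.2 and 155.2 in the FR30 high-fat and standard samples and 158.4 and 157.9 in the control high-fat and standard samples. Of 8 factors measured, 3 were detected in all samples, Tal1 at log2 differences of -0.01 and 0.00 with diet, Lyl1 at 0.02 and 0.06 and Ldb1 at 0.19 and -0.05 in FR30 and control offspring.

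Genes of erythroid signalling and maturation were mixed. Of 9 compared, 3 were called higher and 1 lower with diet in FR30 offspring, and 2 higher and 0 lower in control offspring. Over all genes compared the shares called higher were 3.82% and 2.57%, and lower 3.38% and 3.37%. Hemgn, a nuclear protein of erythroid cells, read 220.7 and 184.4 in the FR30 high-fat and standard samples. In the control high-fat and standard samples it read 211.1 and 186.2. Its log2 differences with diet were 0.74 in FR30 and 0.53 in control offspring. Both standard diet signals of Hemgn lay near background, with detection p-values of 0.0449 in the FR30 and 0.0303 in the control sample. The control standard signal had a STDEV of 21.5. Bpgm, which makes the bisphosphoglycerate that tunes oxygen release, read 1847.6 and 1231.6 in the FR30 high-fat and standard samples and 1717.7 and 1245 in the control high-fat and standard samples, log2 differences of 0.64 and 0.52. Both genes had the diet order of Hbb in both prenatal groups, and both were called in FR30 offspring only; the differences between the diet differences were 0.22 and 0.12, neither called.

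The carbonic anhydrases, which red cells share with other tissues, had another order. Car1 read 264.8 and 385 in the FR30 high-fat and standard samples and 335.8 and 327.5 in the control high-fat and standard samples, so it was lower with diet in FR30 offspring, at -0.96, with 0.07 in control offspring. Car2 was 1.57-fold higher with diet in control offspring and read -0.11 in FR30 offspring. On the high-fat diet both were lower in FR30 than in control offspring, with log2 differences of -0.65 and -0.76, while Ahsp of the same list was higher. The receptor for iron-loaded transferrin, Tfrc, read 0.33 and 0.05. Epor, the erythropoietin receptor, and Epo itself were detected in no sample.

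**Figure D3:**
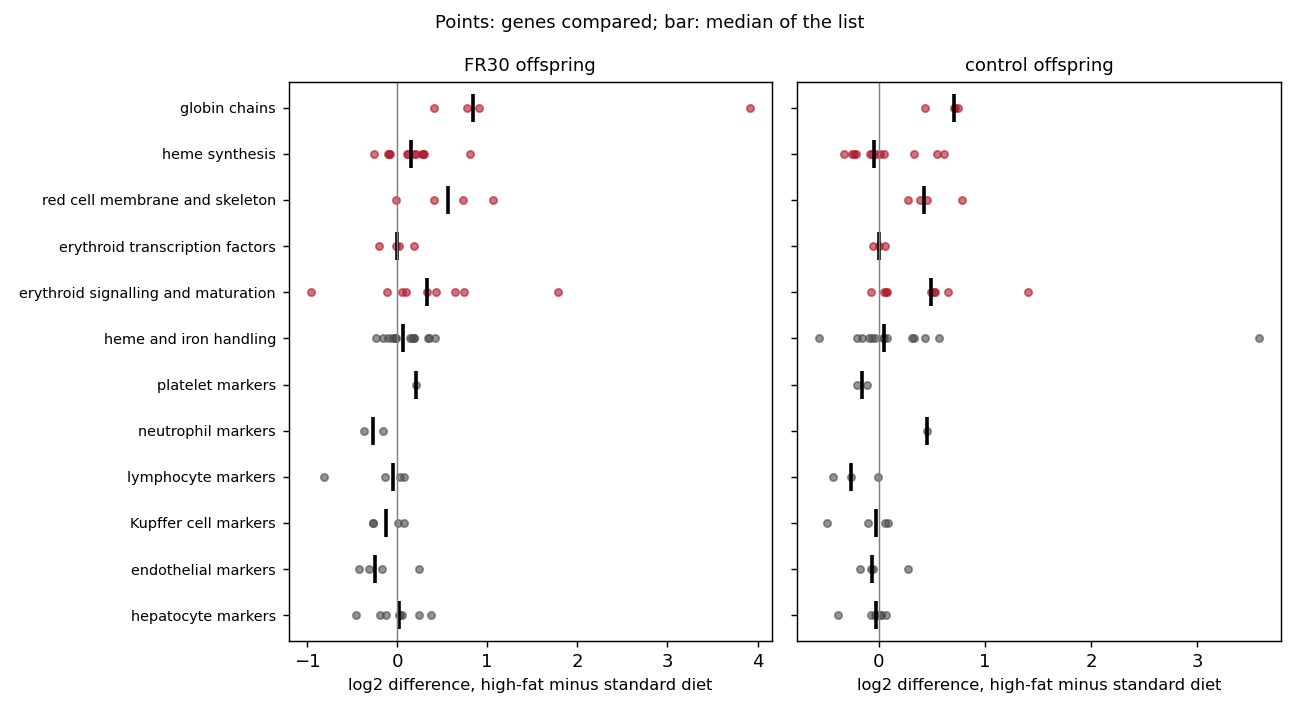
Log2 differences between high-fat and standard diet for each compared gene of the erythroid lists (red) and of lists for heme handling and other cell types (grey), in FR30 and control offspring, with the list median as a bar. Globin chains have the highest medians of the lists drawn, 0.85 in FR30 and 0.71 in control offspring.

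Genes that handle free heme and iron were compared with diet as a neighbouring list. Over all genes compared 3.82% and 2.57% were called higher in FR30 and control offspring, and 3.38% and 3.37% lower. Of the 14 genes of the list, 0 were called in FR30 offspring and 1 in control offspring. The called gene was Hmox1, heme oxygenase, with a signal of 5520.3 in the control high-fat against 588.2 in the control standard sample, and 760.8 against 684.8 in the FR30 high-fat and standard samples. The iron exporter Slc40a1 read 0.42 and 0.57 with diet in FR30 and control offspring, and the iron hormone Hamp -0.15 and -0.56, none of them called.

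Markers of other blood and liver cells had no shared direction with diet. Platelet markers had 5 of 7 rows undetected in all samples and 0 called. Neutrophil markers had 7 of 9 undetected, S100a8 and S100a9 among them, and 0 called. Of lymphocyte markers 6 of 10 were undetected, including Cd3e, and 1 was called, Cd8a, lower with diet in FR30 offspring at -0.81. Over all genes 3.38% were called lower in that comparison. Kupffer cell, endothelial and hepatocyte markers had 0 genes called with diet in either prenatal group, with medians between -0.24 and 0.02. Most hepatocyte markers, such as Alb, lie near the top of the scale, and Tat, an enzyme of tyrosine breakdown with lower signals, read -0.45 in FR30 and -0.38 in control offspring.

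Summed background-corrected signals put the lists on the same samples. The globin rows summed to 72694 and 49529 in the FR30 high-fat and standard samples and to 71462 and 49560 in the control high-fat and standard samples. A sum is carried by the brightest genes of its list, for globins by Hba-a2 near the top of the scale. Lymphocyte markers summed to 694 and 799 in FR30 high-fat and standard and to 717 and 883 in control high-fat and standard samples. Adipocyte and muscle markers summed to 790 and 6184 in the FR30 high-fat and standard samples and to 585 and 441 in the control high-fat and standard samples. These markers were lower with diet in FR30 offspring for 8 of 8 genes compared, with a median log2 difference of -2.38. From the non-normalized table the median was 0.41, over fewer genes. Ucp1, Acta1, Ckm and Tnnt3 were below detection there in both FR30 samples and so had no difference. In the FR30 standard sample of the normalized table they read 1556.8, 476.2, 341.7 and 218.6, against 133.9, 156.3, 152.7 and 162.3 in the non-normalized table. Hbb, Ahsp and Alas2 had diet differences of 0.77, 1.69 and 0.76 in FR30 offspring in that table, after background correction and quantile normalization. These lie close to those of the normalized table, which went through the same steps. Without these steps the FR30 signal ratios of Hbb, Ahsp and Alas2 were 2.30, 2.55 and 1.42 in the non-normalized table. In the normalized table they were 1.68, 2.03 and 1.23. Fitted mean signal above background was 836.8 in the FR30 high-fat and 622.4 in the FR30 standard sample of the non-normalized table. In the normalized table it was 721.6 and 731.4. The non-normalized ratios therefore include a difference in overall brightness between the samples.

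The profile of the 4 genes over 4 samples was also met outside the erythroid lists. Of 8385 other genes detected in all samples, the nearest to the mean profile by root mean square distance was Slc1a2, a glutamate transporter, at 0.0931 on the log2 scale and a Pearson r of 0.993 over 4 samples. It read 1020 and 370.9 in the FR30 high-fat and standard samples and 699.3 and 435 in the control high-fat and standard samples. The next were Ces2, a carboxylesterase, at 0.138, Slc16a10, an amino acid transporter, at 0.155, Cyp7b1, a steroid hydroxylase, at 0.191, and Sult1c2a (RGD1562392 in the file), annotated as similar to a sulfotransferase, at 0.193. RGD1565045, Neu2, Pir, Pla1a and Aldh1a1 followed, up to 0.241. For comparison the distance was 0.233 for Ahsp, 0.384 for Alas2, 0.397 for Hbb and 0.75 for LOC287167 itself. With 4 points that share the same samples, such likeness is a description only.

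**Figure D4:**
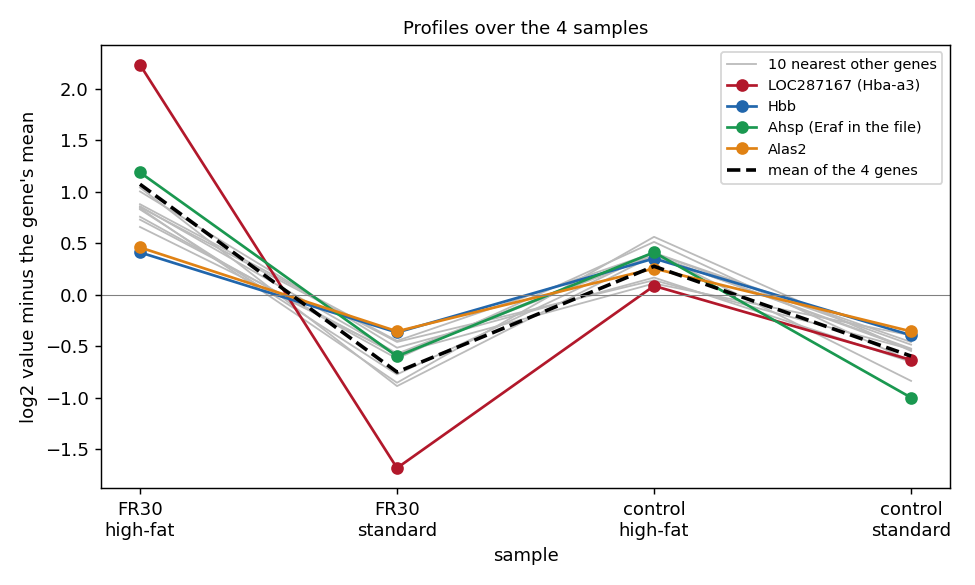
Log2 values centred on each gene's mean in the 4 samples, for the 4 genes (colours), their mean (dashed) and the 10 nearest other genes (grey). All lines lie above 0 in both high-fat samples, and LOC287167 spans the widest range, with 2.23 in the FR30 high-fat and -1.68 in the FR30 standard sample.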

How the data were processed

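Liver RNA of 4 rat samples, 1 per group, was measured on Illumina BeadArrays; per the labels' protocols extraction used Trizol and then RNeasy columns with DNase I, before labelling as biotinylated cRNA. The submitters' processing notes name GenomeStudio, without a version. The authors deposited normalized signal intensity with a STDEV and a detection p-value per gene, per the file headers; how they normalized it is not stated. The deposited non-normalized intensity matched genes by identifier at Pearson r between 0.0587 and 0.0658. By row order it matched at 0.99857 or above for 20733 rows, pairs chosen partly by signal. It served as an alternative, with the same background correction and quantile normalization before differences were taken.

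Background was corrected with the normexp model of limma 3.58.1 (R 4.3.3), fitted from detection p-values on 21209 rows whose p-values were not averaged over probes, with an offset of 16, then quantile normalization and log2. The row with the highest mean signal stood for a gene. A gene detected in 1 sample of a pair was set against the higher of its own value and the lowest detected value in the other sample. That lowest value came from rows with p-values averaged over probes, so bounds are printed for a floor from the other rows, an alternative chosen after seeing the data. A call needed 1.5-fold, and 2-fold for a difference between diet differences. The functions were tested on simulated data. Python 3.11.15, pandas 2.3.3, numba 0.67.0 and Biopython 1.88 did the rest.

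The genes and lists were chosen with earlier results of these data known. Named are the 4 genes, called members of the erythroid lists detected in all samples, leading members of other lists and the 10 nearest profiles. So are 10 fixed genes, of which Alas1 was not found. Add2, Rhd, Uros, Abcb10 and the other list members named beside them were added after their values were seen. Names were updated through RefSeq (GRCr8): 9908 rows held a current symbol, 4823 a synonym and 1585 a gene ID. The alternatives were median scaling, no background correction, an offset of 50, a detection p-value under 0.01, no genes with wide STDEVs, no detection filter and the non-normalized table. The number of arrays limits the precision.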

Additional observations from a re-analysis of the deposited data

Results flagged for a closer look

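LOC287167 differed in direction between the diets under the same prenatal contrast. FR30 minus control was 2.145 on the log2 scale on the high-fat diet and -1.049 on the standard diet, both past 1.5-fold. Each value rests on 1 sample against 1, so the difference was not tested. The FR30 standard signal of 184.4 lies near the background mean of 154.0 in that sample.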

How the results depend on the processing

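Of 156 values of the 4 genes under 8 alternatives, 148 kept their side of 1.5-fold (2-fold for the difference of differences). Of the rest 8 fell short of the call, and 0 of the called values changed sign. The stricter detection p-value, the removal of wide STDEVs, no detection filter and the other floor of bounds returned the main value wherever they gave one. They alter the genes compared or the floor and not the signals, so their kept values are no check of size. Of the values not called, 1 changed sign: FR30 minus control on the standard diet for Alas2, at 0.00, read -0.01 with median scaling. Those 8 came from an offset of 50 or from no background correction, which shrink differences near background by their construction. The FR30 minus control difference of Alas2 on the standard diet and the differences of diet differences of LOC287167 and Alas2 had no value at a detection p-value under 0.01, nor had that of LOC287167 in the non-normalized table. Without background correction the counts of genes called higher and lower were 164 and 136 with diet in FR30 offspring (365 and 323 with it), 111 and 136 with diet in control offspring (243 and 319), 60 and 44 for FR30 minus control on the high-fat diet (174 and 147), 86 and 70 on the standard diet (201 and 211), and 45 and 27 for the difference of differences (93 and 91). With an offset of 50, genes called lower numbered 90 and 131 for FR30 minus control on high-fat and standard diet and 58 for the difference of differences. The floor of bounds from rows with p-values not averaged over probes, chosen after seeing the data, ended the call of Abcb10 and left counts between 145 and 352 in the comparisons of 2 samples. The non-normalized table gave 131 genes called higher on the standard diet. No paired analysis was possible because each group has 1 sample with no replicate number. Diet in FR30 offspring cannot be given without the FR30 standard sample.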
